A study of Mus musculus with 2 samples.

Results

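The 6 microRNA genes described here lie inside the Hox gene clusters of the mouse. They are Mir10a, Mir10b, Mir196a-1, Mir196a-2, Mir196b and Mir615, and they were taken by their GENCODE M21 symbols from 2202 annotated microRNA genes. All 6 were found in the count tables. The libraries hold small RNA from gastrocnemius, a calf muscle of the hindlimb, of female B6CASTF1/J mice aged 14 days, whose parents are of the strains C57BL/6J and CAST/EiJ. The labels name no treatment. There was 1 group of 2 biological replicates and no second tissue, age or genotype, so levels were described and no conditions were compared. The biosample name of replicate 1 mentions 3 females, that of replicate 2 a single female, and both samples carry the same donor identifier. No label says whether animals were pooled, so the spread between the replicates may be in part technical.

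Hox genes encode transcription factors that give cells their position along the body, and their order in each cluster follows the order in which they are used from head to tail. The microRNAs between them are made in the same embryonic regions as the neighbouring Hox genes. A microRNA is cut from a hairpin and pairs with messenger RNAs mainly through its seed, the bases near its 5′ end. The miR-196 family is known for directing cleavage of the Hoxb8 messenger RNA in mouse embryos, and it is present in the mouse hindlimb bud but not in the forelimb bud. The miR-10 family is known to repress Hox genes of the anterior groups in zebrafish.

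The main mature strands are shown because their near identity decides which reads could be told apart. They are RefSeq sequences on GRCm38.p6, written 5′ to 3′ with the seed (bases 2 to 8) in capitals:
miR-10b-5p: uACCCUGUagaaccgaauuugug
miR-10a-5p: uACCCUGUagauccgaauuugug
miR-196b-5p: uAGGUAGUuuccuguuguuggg
miR-196a-5p: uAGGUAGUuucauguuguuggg
miR-615-3p: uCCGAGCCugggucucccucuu
miR-615-5p: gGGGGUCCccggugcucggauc

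The strands fall into 2 shared seeds and the seeds of the miR-615 arms. The seed ACCCUGU belongs to miR-10a-5p and miR-10b-5p alone among the mature mouse microRNAs of the table, and the seed AGGUAGU to miR-196a-5p and miR-196b-5p alone. No other mature strand of the table has the seed of either arm of miR-615. Counting from 1 at the 5′ end, miR-10b-5p and miR-10a-5p differ by A12U, outside the seed, and match at the other 22 of 23 bases. In the same way miR-196b-5p and miR-196a-5p differ by C12A and match at 21 of 22 bases. The letters AGGUAGU occur at any position in 13 mature strands of the table, the miR-196 strands included. Among the 13 are 7 of 21 mature let-7 strands, with the letters at bases 3 to 9 and thus not as the seed. The letters ACCCUGU occur in 5 mature strands, the miR-10 strands included, and in no let-7 strand. All 6 genes had RefSeq mature sequences. The counts pool both arms of a hairpin, so no level below belongs to a named arm.

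Levels are given in CPM, a gene's reads on its own strand as a share of all reads assigned to microRNA genes, scaled so that both libraries sum to the same value. The reads assigned to microRNA genes numbered 2672454 in replicate 1 and 4292012 in replicate 2, so that 1 read was worth 0.374 and 0.233 CPM. A read stands for a small RNA molecule and the mature strands are 22 or 23 bases long, so genes were compared without scaling by length. In whole muscle, fewer cells of a type and less RNA per cell cannot be told apart.

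All 6 hairpins lie on the strand of their Hox neighbours, and each of the 4 clusters holds at least 1 of them. All positions are mm10. Mir10a (chr11:96317165-96317274, plus strand) lies between genes, 992 bp from Hoxb4 and 11043 bp from Hoxb5. Mir10b (chr2:74726070-74726137, plus strand) lies within an annotated intron of 2 of 3 Hoxd4 transcripts and of 1 of 6 Hoxd3 transcripts. Mir196b (chr6:52230081-52230165, minus strand) lies 1031 bp from Hoxa10 and inside Hoxa9, in an exon of 2 of its 5 transcripts, both annotated as noncoding. Mir196a-2 (chr15:102973350-102973434, plus strand) lies between Hoxc10 and Hoxc9, at 1456 bp and 3004 bp, and in an intron of 1 of 2 Hoxc5 transcripts. Mir196a-1 (chr11:96265164-96265265, plus strand) lies between genes, 6191 bp from Hoxb9. Mir615 (chr15:103014910-103015001, plus strand) lies in an intron of both Hoxc5 transcripts. The Mir10 hairpins thus stand beside group 4 genes and the Mir196 hairpins beside genes of groups 9 and 10. The annotation holds 1 further microRNA gene inside a Hox cluster, Gm44463 (chr2:74701006-74701142, minus strand), on the strand opposite to its Hox neighbours. Gm44463 had 0 reads in both libraries, which allows up to 1.12 CPM in replicate 1 and 0.699 CPM in replicate 2.

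**Figure D1:**
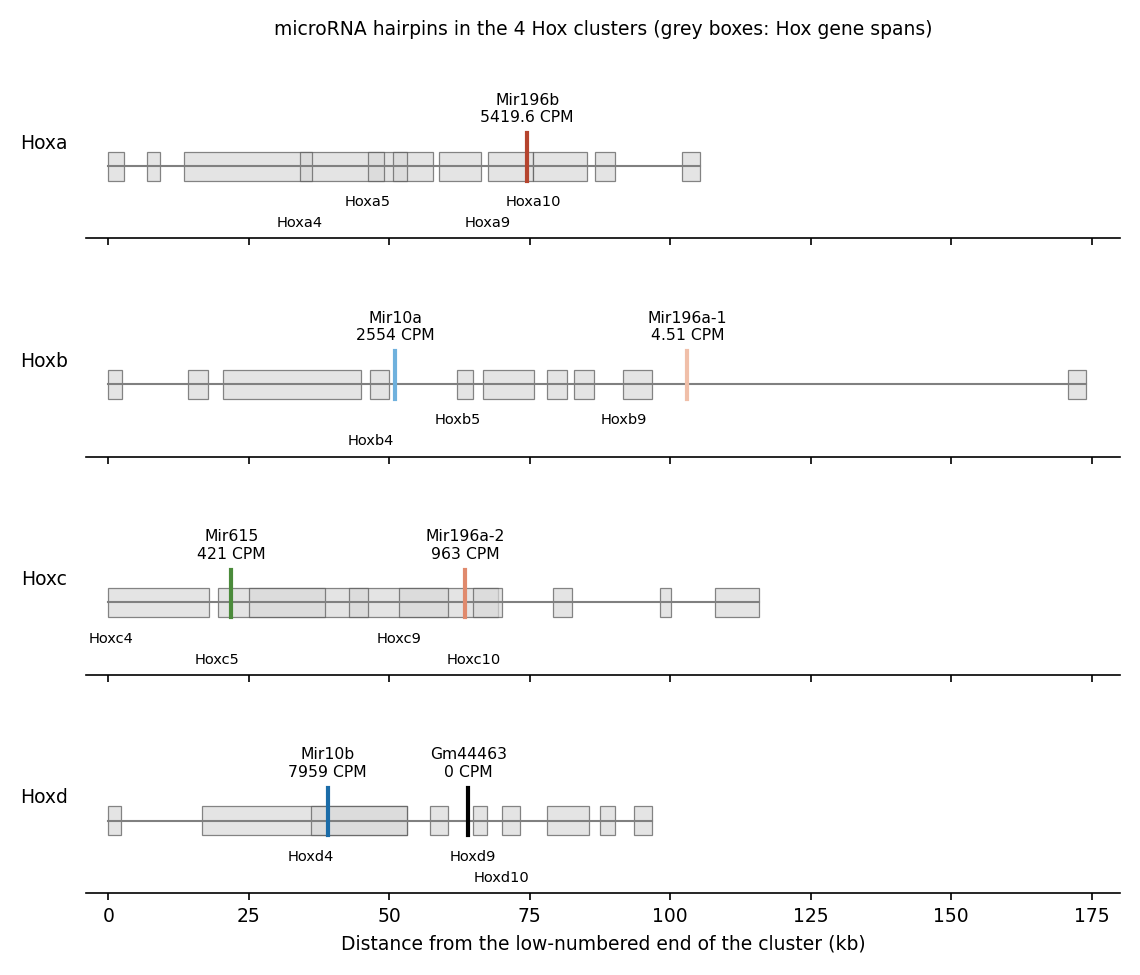
Position of each microRNA hairpin in the 4 Hox clusters, as distance in kb from the low-numbered end of the cluster; grey boxes are annotated Hox gene spans and genes of groups 4, 5, 9 and 10 are named under their left edge. Labels give the mean level in CPM over 2 replicates, from 7959 CPM for Mir10b in Hoxd to 4.51 CPM for Mir196a-1 in Hoxb, with no read for Gm44463.

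All 6 genes were detected at 1 CPM or more in both replicates, a level that 16.7% of the 2202 annotated genes reached. Together they held 1.69% of microRNA reads in replicate 1 (95% exact binomial interval 1.67 to 1.70) and 1.78% in replicate 2 (1.77 to 1.79), or 1.73% ± 0.0645 (SD, n = 2). This total leaves out multiply aligned reads, and with all of them in it the share was 0.685%. How many of those reads were microRNA was not tested. Of the 6, 5 had a mean of 100 CPM or more, against 7.99% of all annotated genes. Their median of the mean levels was 1758 CPM, beside 81.5 CPM for the 367 genes that reached 1 CPM in each replicate. Within the Hox cluster reads, the Mir10 genes made up 60.7% ± 1.30, the Mir196 genes 36.9% ± 1.27, and Mir615 the rest. Reads that fit both Mir196a-1 and Mir196a-2 would be counted for neither. With them, the Mir196 share would be higher and the other shares lower.

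**Figure D2:**
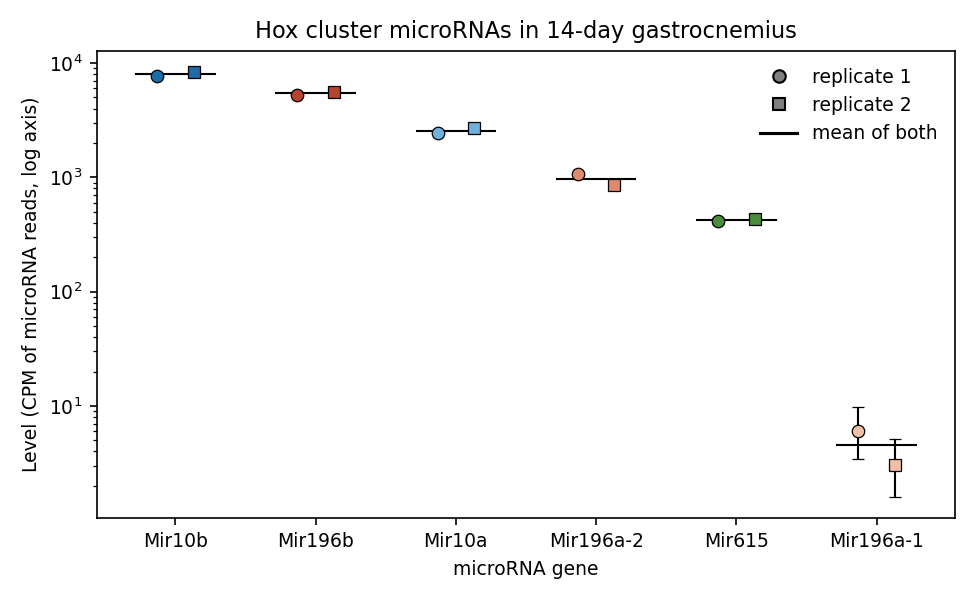
Level of each Hox cluster microRNA gene in CPM on a log axis, with replicate 1 as circles, replicate 2 as squares, 95% counting intervals as bars (hidden by the symbols where narrow) and the mean as a line. From Mir10b at 7959 CPM to Mir615 at 421 CPM the replicates of neighbouring genes do not overlap, and Mir196a-1 stands far below at 4.51 CPM. The levels of Mir196a-1 and Mir196a-2 leave out reads that fit both loci.

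Mir10b, the miR-10 gene of the Hoxd cluster, was the highest. It had 20434 reads or 7646 CPM in replicate 1 and 35506 reads or 8273 CPM in replicate 2. The mean was 7959 ± 443 CPM (SD, n = 2). By counted reads, which leave out multiply aligned ones, Mir10b ranked 26th and 25th among all genes. Mir10a, its partner in the Hoxb cluster, had 2431 and 2677 CPM, a mean of 2554 ± 174 CPM, and ranked 53rd and 51st. In both libraries Mir10b lay above Mir10a by nearly the same factor. The read ratio of Mir10b over Mir10a was 3.15 in replicate 1 (95% exact interval 3.06 to 3.23) and 3.09 in replicate 2 (3.03 to 3.16), a quantity on which library scaling has no bearing. The longest stretch their hairpins share is 15 bases and neither shares more than 11 bases with any other annotated microRNA hairpin, so an exact full-length read of either matches no other annotated microRNA hairpin.

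Mir196b, the miR-196 gene of the Hoxa cluster, came second. It had 14174 reads or 5304 CPM in replicate 1 and 23758 reads or 5535 CPM in replicate 2, a mean of 5419.6 ± 164 CPM, and ranked 33rd and 34th. The Mir10b over Mir196b read ratio was 1.44 (1.41 to 1.47) in replicate 1 and 1.49 (1.47 to 1.52) in replicate 2. Mir196a-2, the miR-196 gene of the Hoxc cluster, had 1064 and 862 CPM, a mean of 963 ± 143 CPM. Mir196a-1, of the Hoxb cluster, had only 16 reads in replicate 1 and 13 in replicate 2, or 5.99 CPM (3.42 to 9.72) and 3.03 CPM (1.61 to 5.18). Mir196a-1 shares the Hoxb cluster with Mir10a, which had 406 times (249.9 to 711) its counted reads in replicate 1 and 884 times (517 to 1660) in replicate 2. Reads that fit both Mir196a-1 and Mir196a-2 are missing from these ratios, so they do not compare the mature strands that the 2 loci of the Hoxb cluster made.

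The pair Mir196a-1 and Mir196a-2 encodes the same mature miR-196a-5p. Their hairpins are shown because the shared stretch, in capitals, is the whole mature strand:
Mir196a-2: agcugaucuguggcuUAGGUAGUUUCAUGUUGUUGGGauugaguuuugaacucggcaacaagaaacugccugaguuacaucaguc
Mir196a-1: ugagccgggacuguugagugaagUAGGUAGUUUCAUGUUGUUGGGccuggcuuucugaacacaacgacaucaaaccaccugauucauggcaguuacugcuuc

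This stretch of 22 bases is the longest that the hairpins share. A read that covers it and nothing more matches both loci, and in the layout of these files it would be counted for neither. The letters next to the stretch differ on both sides, and the 3p strands differ at 17 of 22 bases, so longer exact reads and 3p reads match only one of the pair. The read counts of Mir196a-1 and Mir196a-2, both arms together, therefore leave out the shared reads and give no level of miR-196a-5p. The base after the stretch is a in Mir196a-2 and c in Mir196a-1, so a shared strand with an added 3′ base could match a single locus. Whether such reads were counted for the wrong locus of the pair was not tested, so neither count is a sure lower bound for its locus. The ratio of 178 (109 to 311) for Mir196a-2 over Mir196a-1 in replicate 1, and of 285 (166 to 535) in replicate 2, is one of single-locus reads and does not show how much mature miR-196a each locus made. Summed, the Mir196a genes stood at 1070.2 CPM in replicate 1 and at 865 CPM in replicate 2. Mir196b exceeded that sum by a read ratio of 4.96 (4.76 to 5.16) in replicate 1 and 6.40 (6.18 to 6.63) in replicate 2, a ratio that would be lower if the shared reads were counted. Mir196b shares at most 12 bases with any other annotated microRNA hairpin.

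Mir615, in the Hoxc5 intron, had 1107 reads or 414 CPM in replicate 1 and 1836 reads or 428 CPM in replicate 2, a mean of 421 ± 9.58 CPM. Its neighbour in the Hoxc cluster, Mir196a-2, had 2.57 times (2.40 to 2.76) its reads in replicate 1 and 2.02 times (1.91 to 2.13) in replicate 2. Both ratios rest on the counted reads of Mir196a-2, which leave out those that fit Mir196a-1 as well. The longest stretch of Mir615 in another annotated hairpin was 14 bases, in Mir6916.

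Set in order, the levels fell from Mir10b through Mir196b, Mir10a, Mir196a-2 and Mir615 to Mir196a-1 in both libraries. At each step the lower replicate of the higher gene lay above the higher replicate of the next. The places of the Mir196a genes come with a reservation, since their counts leave out the reads that fit both loci. Summed by cluster, Hoxd supplied 45.9% ± 0.847 of the counted Hox cluster reads, Hoxa 31.3% ± 0.219, Hoxb 14.8% ± 0.441 and Hoxc 8.01% ± 1.07. The Hoxb and Hoxc reads leave out the reads that fit both Mir196a loci, since each cluster holds a Mir196a gene. The Hoxd and Hoxa shares would be lower if the shared reads were counted, and the SDs do not cover this loss.

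**Figure D3:**
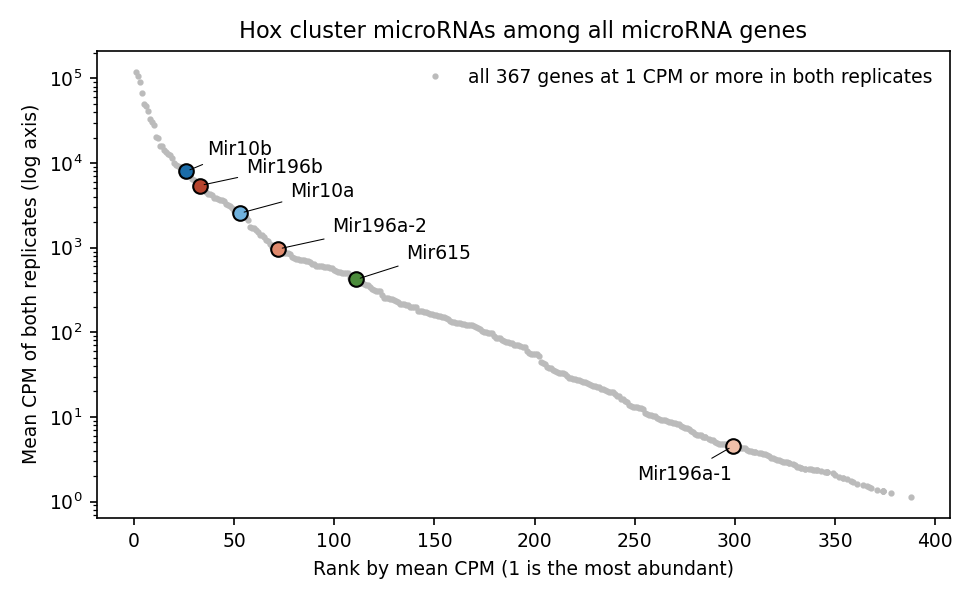
Mean CPM of both replicates on a log axis against rank, for the 367 genes that reached 1 CPM in each replicate (grey) and the 6 Hox cluster genes (coloured). Mir10b, Mir196b, Mir10a, Mir196a-2 and Mir615 stand at ranks 26, 33, 53, 72 and 111, and Mir196a-1 at rank 299. Ranks are by counted reads, which leave out multiply aligned ones.

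The replicates were then set against each other, 1 library on each side, so the ratios compare libraries and carry no p-value. Of the 5 Hox cluster genes whose mean was at least 10 CPM, none lay more than 25% apart (the higher library over the lower), beside 28.5% of the 260 genes at that level. This count turned on the scaling, since Mir196a-2 passed 25% with unstranded counts (ratio 1.26), with TMM (1.26), narrowly with DESeq2 size factors, and without the 10 most abundant genes (1.29). Under each of these it was 1 of 5, beside 28.8% to 30.0% of the genes at that level. None of the 5 passed 2-fold, against 3.85% of the 260. The CPM ratio of replicate 1 over replicate 2 was 0.924 (95% counting interval 0.908 to 0.940) for Mir10b and 0.908 (0.881 to 0.936) for Mir10a. It was 0.958 (0.938 to 0.978) for Mir196b and 0.968 (0.898 to 1.04) for Mir615. Mir196a-2 was the one gene of the 5 with more in replicate 1, with a ratio of 1.23 (1.18 to 1.30). The other 4 were lower there, as were 53.8% of the 260 genes, but without the 10 most abundant genes Mir615 stood at 1.01. For 4 of the 5 the interval excluded 1, as it did for 58.8% of the 260, and the count was 3 to 5 over the other scalings. The interval of Mir196a-1, with few reads, ran from 0.891 to 4.47. The median log2 ratio of the 5 genes was -0.06 and that of the 260 was -0.04.

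**Figure D4:**
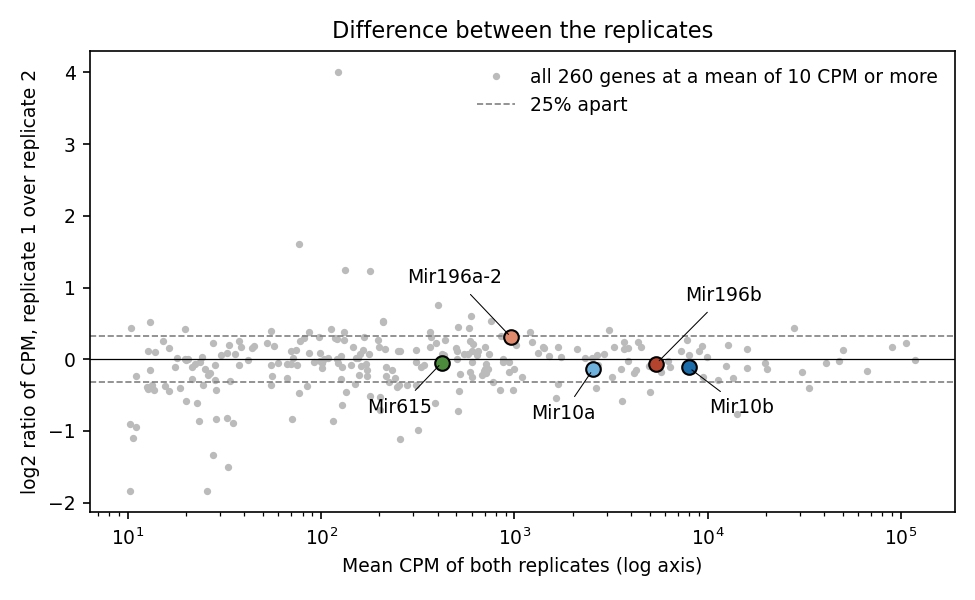
The log2 ratio of CPM, replicate 1 over replicate 2, against mean CPM on a log axis for the 260 genes whose mean was at least 10 CPM (grey), with dashed lines where the libraries are 25% apart. The 5 Hox cluster genes at that level (coloured) lie between the lines, Mir196a-2 at 0.30 and the other 4 between -0.14 and -0.05; under TMM, with a ratio of 1.26, Mir196a-2 lies beyond the upper line.

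The genes nearest to each Hox cluster gene in the plane of both replicates' log2(CPM + 1) were found as well, over these 2 samples only. Nearest to Mir10b was Mir434, of the imprinted Dlk1-Meg3 cluster, with 7569 and 8373 CPM at a distance of 0.023 log2 units, and then Mir195a at 0.126. Mir196b was nearest to Mir191 (0.094) and Mir99b (0.138). Mir10a was nearest to Mir493 (0.074) and Mir532 (0.107), and Mir196a-2 to Mir15b (0.145) and Mir539 (0.242). Mir615 was nearest to Mir29a, with 432 and 411 CPM at 0.085, and to Mir25 at 0.100. With 2 samples this likeness is mostly one of level.

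The Mir99, Mir100 and Mir125 genes, relatives of Mir10 by family grouping outside the Hox clusters, were fixed as a list of 6 for comparison. The grouping is not one of shared seed, since ACCCUGU is the seed of miR-10a-5p and miR-10b-5p alone. Mir10 genes held 1.05% ± 0.0617 of microRNA reads and these relatives 2.92% ± 0.682 (SD, n = 2). Their levels ran from 103 CPM for Mir125b-2 to 14128 CPM for Mir99a. Any read that fits both Mir125b-1 and Mir125b-2 would be counted for neither, so their levels and the summed share of the relatives leave out such reads. Mir99a moved more between the libraries than either Mir10 gene, with a ratio of 0.591 (0.583 to 0.599), and Mir100 stood at 0.728 (0.712 to 0.744). Mir99b had 0.881 (0.863 to 0.899), while the intervals of Mir125a, Mir125b-1 and Mir125b-2 included 1.

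Markers of the cell types of muscle were measured in the same libraries. Skeletal muscle markers, with 7 of 8 listed genes at or above 1 CPM in each replicate, held 9.57% (replicate 1) and 8.53% (replicate 2), nearly all from Mir206 at 89899.6 ± 7361 CPM. The list shares leave out reads of mature strands that several loci encode, which enter no gene, so they are not the makeup of the tissue. Mir1a-1, at 8.24 CPM, and Mir133a-1, at 3.08 CPM, are muscle genes with such a strand. Endothelial markers, mostly Mir126a, held 11.9% in each. Fibroblast and smooth muscle markers held 2.91% and 2.97%, with 6 of 7 genes at that level and Mir199a-1 at 0 reads. Other cell types showed less. Leukocyte markers (5 of 5) held 0.185% and 0.135%, erythroid markers (2 of 2) 0.0437% and 0.0185%, and epithelial markers (5 of 7) 0.00782% and 0.00932%. Neural markers (5 of 11) held 0.200% and 0.186%, mostly from Mir128-1 (1503 and 1345 CPM) and Mir128-2 (409 and 330 CPM). Both were higher in replicate 1, while Mir9-3, Mir137, Mir138-1 and Mir138-2 were lower there. Mir9-1, Mir9-2 and all Mir124a genes had 0 reads. The Mir9 loci share a mature strand, as do the Mir124a loci, so these zeros do not show that the strands were absent. The hepatocyte gene Mir122 held 0.0229% and 0.00142%. Like Mir196a-2, the sums of the muscle, leukocyte, erythroid, neural and hepatocyte lists were higher in replicate 1. The muscle sum followed Mir206, with Mir1a-2 and Mir133a-1 also higher there. Mir499 (213 and 280 CPM), Mir208b (81.6 and 149 CPM), Mir133b, Mir1a-1 and Mir133a-2 were lower there, as was Mir223 of the leukocyte list. The part of these lists in the ratio of Mir196a-2 was not tested. Which cells of the muscle held the Hox cluster microRNAs was not tested.

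The best-known target of the miR-196 family, Hoxb8, lies in the same Hoxb cluster as Mir196a-1. Its site is shown because it sets the pairing of miR-196a beside that of miR-196b, whose sequences differ at a single base. In the longest annotated Hoxb8 3′ UTR (845 bases, GENCODE M21, chromosome 11) the window of 22 bases with most pairs begins at base 418, with the part opposite the seed in capitals:
Hoxb8 site: cccaacaacaugaaACUGCCUa

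Along this window miR-196a-5p makes 21 Watson-Crick pairs and 1 G:U pair, which falls in the seed, and leaves no base unpaired. The strand miR-196b-5p makes 20 Watson-Crick pairs and the same G:U pair, with 1 base unpaired. The libraries hold no messenger RNA, so the level of Hoxb8 in these muscles was not measured here.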

How the data were processed

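Small RNA under 30 nt was sequenced from 2 samples of 1 group, per the labels. For each microRNA gene the deposited files give raw read counts in 3 columns, taken from their order as unstranded, same-strand and opposite-strand, made on mm10 with GENCODE M21, per the file headers. Which aligner and which counter the authors used is not given in the sources used here. The same-strand counts were used. The 4 lines naming no gene (66.6% and 64.6% of reads) stayed out of totals. In the STAR-like layout of these files, multiply aligned reads enter no gene. The mice carry a CAST/EiJ genome beside that of mm10, and what this does to alignment was not tested.

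CPM, SD, exact (Clopper-Pearson) 95% intervals and ratios with exact conditional intervals were computed in Python 3.11.15 (numpy 2.4.6, pandas 2.3.3, scipy 1.17.1). They cover counting error only, since no molecular identifiers are named. A count of 0 allows 3 reads. Alternatives were unstranded counts, TMM (edgeR 4.0.16) and DESeq2 1.42.0 size factors in R 4.3.3, other denominators, a filter of 10 reads, CPM thresholds of 10 and 0.5 and each replicate alone. Named were all 6 genes, the 2 nearest genes to each at 10 CPM or more, other Hox cluster microRNAs and the Mir10 relatives. Marker lists are given as sums, with the leading gene of some lists and genes that bear on how the sums are read. The genes and lists were chosen with earlier results of these data known. Let-7 strands, Mir6916 and Hoxb8 were added after values were seen.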

Additional observations from a re-analysis of the deposited data

Results flagged for a closer look

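Multiply aligned reads, which add to no gene, were 52.7% of all reads in replicate 1 and 52.4% in replicate 2, above the limit that a count of 0 allows. By exact stretches shared between annotated microRNA hairpins, they bear on Mir196a-1 and Mir196a-2 among the Hox cluster genes, which share 22 bases. Matches elsewhere in the genome and matches with mismatches were not searched, so an effect on the other Hox cluster genes was not tested. How many of the multiply aligned reads were miR-196a was not tested. On the strand opposite to the 6 hairpins there was 1 read, at Mir10a in replicate 1.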

How the results depend on the processing

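TMM, DESeq2 size factors and the filter of 10 reads changed no level of the Hox cluster genes by more than the SD between replicates, while unstranded counts and other denominators change the total and so rescale all levels. With unstranded counts the summed share was 2.33%, and the levels were 10704 CPM for Mir10b, 7290.2 for Mir196b, 3435 for Mir10a, 1297 for Mir196a-2 and 566 for Mir615. Over all reads of the file the share was 0.596%, with Mir10b at 2739.7, Mir196b at 1865, Mir10a at 879, Mir196a-2 at 330.2, Mir615 at 145 and Mir196a-1 at 1.54 CPM. With multiply aligned reads in the total it was 0.685%, with 3150.2, 2144, 1011, 380.1, 167 and 1.77 CPM in the same order of genes. Without the 10 most abundant genes it was 4.48%, with 20595, 14028, 6607, 2499.7, 1089.9 and 11.8 CPM.

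The ratio of replicate 1 over replicate 2 for Mir10b was 0.946 with unstranded counts, 0.943 with TMM, 0.873 over all reads, 0.889 with multiply aligned reads and 0.964 without the 10 most abundant genes. For Mir196b it was 0.981, 0.905, 0.921 and 0.999 under the same settings without TMM, and for Mir10a 0.858, 0.874 and 0.947 under the last 3. Mir196a-2 stood at 1.17 over all reads, at 1.19 with multiply aligned reads, at 1.26 with unstranded counts and with TMM, and at 1.29 without the 10 most abundant genes. Under the last 3 of these settings, and narrowly with DESeq2 size factors, 1 of the 5 genes was more than 25% apart, beside 28.8% to 30.0% of all genes at that level (237 of the 260 had reads in both libraries with unstranded counts). Without the 10 most abundant genes Mir615 turned from 0.968 to 1.01, so 3 of the 5 were lower in replicate 1, and the intervals of 3 excluded 1, since that of Mir196b (0.999) no longer did. With unstranded counts 3 intervals excluded 1, and over all reads 5 did. These counts were compared across settings after seeing the data.

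With each replicate alone, the share was 1.69% to 1.78%, and the levels 7646 to 8273 CPM (Mir10b), 5304 to 5535 (Mir196b), 2431 to 2677 (Mir10a), 862 to 1064 (Mir196a-2), 414 to 428 (Mir615) and 3.03 to 5.99 (Mir196a-1). The read ratios were 3.09 to 3.15 for Mir10b over Mir10a and 4.96 to 6.40 for Mir196b over the Mir196a genes. All 6 genes kept 1 CPM under each setting, and 5 reached 10 CPM. No paired analysis was possible because there is 1 group. Depth limits Mir196a-1, whose ratio rests on 16 and 13 reads.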
